A study of Mus musculus with 25 samples.

Results

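The ileal loop in which intestinal content stands still, taken from mice labelled IL10 knockout, was set against the sham-operated ileum of wild type mice. The members are the 3 Illumina bead arrays titled as IL10 knockout self-filling loops and the 3 titled as wild type sham ileum, 6 of the 25 arrays of the study. All were female C57Bl/6 mice aged 6 to 8 weeks that had a gel diet for 5 days before surgery, with tissue taken 5 weeks after it. For a loop, 2.5 cm of ileum was resected 3 cm from the ileocecal valve. A self-filling loop collects content and is called stagnant here, and a self-emptying loop drains. The groups used are the IL10 knockout stagnant loop (n = 3), the IL10 knockout draining loop (n = 3), the wild type stagnant loop (n = 3) and the wild type sham ileum (n = 3). There is no IL10 knockout sham ileum among the 25 arrays, so genotype, surgery and stasis change together in the main comparison and cannot be told apart there. "IL10 knockout" refers throughout to arrays with that label. Whether replicates are different animals is not stated in the labels, and each p-value therefore reflects the variation among these samples alone, which could be technical.

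Interleukin 10 is a cytokine that restrains macrophages and T cells, and mice without it are known to develop intestinal inflammation in response to gut bacteria. The ileal epithelium digests and absorbs through enzymes and transporters of the brush border, secretes antimicrobial proteins from Paneth cells, mucus from goblet cells and hormones from enteroendocrine cells, and takes up bile acids. Interferon gamma, made by T cells and natural killer cells, induces chemokines, antigen processing and a family of GTPases that act against intracellular microbes, and neutrophils bring S100A8 and S100A9 into inflamed tissue.

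The targeted gene did not check the label. The Il10 probe read 7.45, 7.24 and 7.34 (normalized log2 intensity) in the IL10 knockout stagnant loops, against 4.40, 4.42 and 4.66 in sham ileum, where it was not detected on any array. That is at least 5.89-fold higher in the group labelled as knockout (limma adjusted p = 3.53e-07), which goes against the label if the probe lies in the deleted part. Where the probe lies in the gene is not stated here, and a probe outside the deletion checks nothing. Tlr4, the lipopolysaccharide receptor, averaged 5.95 ± 0.27 in the IL10 knockout stagnant loops and 4.99 ± 0.13 in sham ileum (SD, n = 3 each), a difference of 0.96 ± 0.20 (SE, limma adjusted p = 0.00132).

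Differences below are log2 fold changes, IL10 knockout stagnant loop minus sham ileum unless stated, with the standard error from a limma fit over all 25 arrays and p-values adjusted over 11227 genes. Genes are called where the adjusted p lies under 0.05, and words such as "rose" or "fell" refer to called genes. In all, 3322 genes were called (29.6%), of which 1714 rose (15.3% of those tested) and 1608 fell (14.3%). At 1 log2 unit or more, 437 rose and 611 fell. The median difference over all genes was 0.02 and the median absolute difference 0.29. Without replicate 1 of the IL10 knockout stagnant loops, 2207 genes were called. Of the probes, 48.5 to 50.9% were detected on the arrays of the stagnant knockout loops and 49.4 to 51.8% on those of sham ileum. The 6 arrays lie in 3 runs of 8 array codes, each with 1 array of either group. Within these runs the change was 8.63, 9.04 and 7.42 for S100a8 and -6.85, -6.78 and -4.61 for Pdzk1. Both genes were chosen among those whose arrays do not overlap, so the same sign in every run was fixed in advance.

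The largest rises belonged to neutrophil and acute phase genes. S100a8, a subunit of the neutrophil protein calprotectin, read 13.29, 13.65 and 11.70 in the IL10 knockout stagnant loops, against 4.66, 4.61 and 4.28 in sham ileum, where it was not detected on any array. The groups were far apart, and the level was at least 273.8-fold higher in the stagnant knockout loops (adjusted p = 8.32e-07). Its partner S100a9 read 11.90, 11.66 and 9.64, against 4.24, 4.58 and 4.32, at least 77.8-fold higher (adjusted p = 1.45e-06). In both genes replicate 3 of the stagnant knockout loops was the lowest of its group and still far above every sham array. Lcn2, the siderophore-binding lipocalin 2, read 12.99, 12.96 and 10.87 in the IL10 knockout stagnant loops and 5.37, 5.20 and 5.61 in sham ileum, with a rise of 6.88 ± 0.55 (SE, adjusted p = 3.23e-08). Lrg1, an acute phase glycoprotein, read 12.56, 13.06 and 12.96, against 6.17, 6.36 and 5.97 in sham ileum, so that its arrays lay close together in both groups (6.70 ± 0.44, SE, adjusted p = 2.88e-09).

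Chil3, a chitinase-like protein of myeloid cells, was at least 32.9-fold higher and Chil1, a chitinase-like protein of macrophages and epithelium, at least 22.9-fold higher. Neither was detected on any sham array. Saa3, an acute phase serum amyloid, rose by 5.10 ± 0.61, and Fpr2, a formyl peptide receptor of neutrophils and macrophages, by 4.65 ± 0.45. Retnlb, a secreted protein of goblet cells, read 13.13, 13.47 and 12.27 in the IL10 knockout stagnant loops, against 5.80, 6.66 and 9.42 in sham ileum, so the sham arrays varied more than the loops (5.66 ± 1.10, adjusted p = 0.000655). B3galt5, a galactosyltransferase, rose by 5.08 ± 0.57, the surface protein gene Ly6d by 4.73 ± 0.72, the protease inhibitors Serpina3n and Serpina3f by 4.37 ± 0.82 and 4.04 ± 0.51, and Chac1, which breaks down glutathione, by 4.18 ± 0.53. The 15 largest rises and falls are drawn by array.

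**Figure D1:**
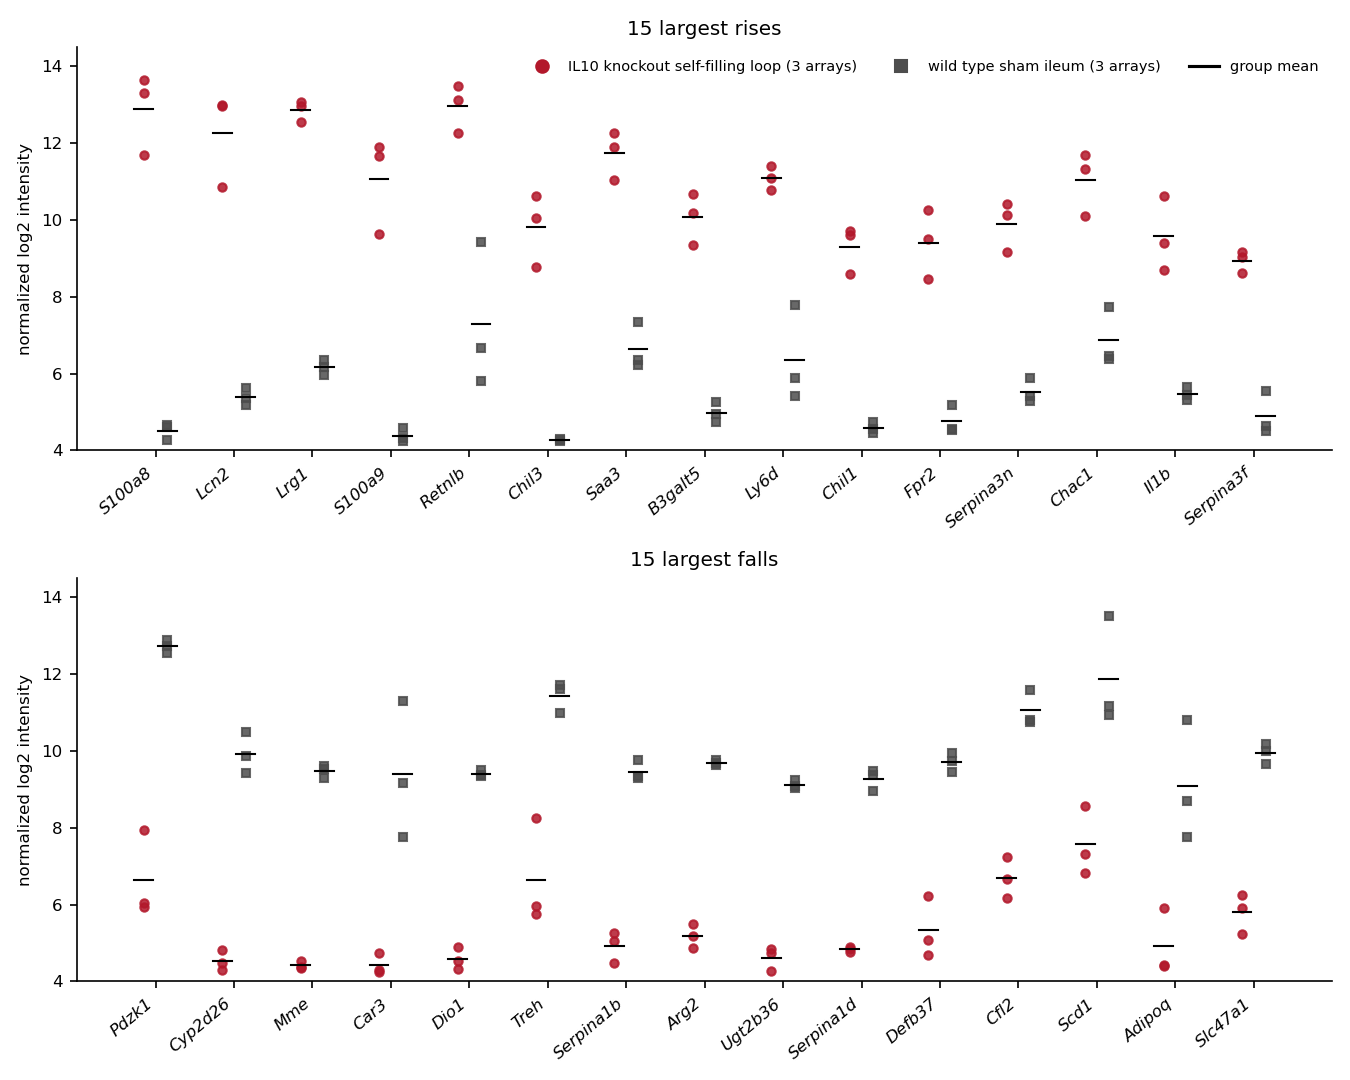
Normalized log2 intensity of the 15 genes with the largest rise (top) and the 15 with the largest fall (bottom) in IL10 knockout stagnant loops (circles, 3 arrays) and wild type sham ileum (squares, 3 arrays), with lines for group means. The 2 groups do not overlap in any of these genes, by the rule that chose them, and the sham arrays spread widely in Retnlb, Car3, Scd1 and Adipoq.

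Of 9 tested neutrophil markers 5 rose and none fell (median 3.17, against 0.02 over all genes), and the share called among all genes was 15.3% higher. Besides S100a8, S100a9 and Fpr2 these were Ltf, the iron-binding lactoferrin (3.17 ± 0.31), and Retnlg (3.19 ± 0.60). Csf3r, Elane, Mmp9 and Trem1 were not called, and Mpo, Ly6g, Cxcr2 and Camp were among the listed markers not tested. Retnlg read 9.84, 7.14 and 7.08 in the IL10 knockout stagnant loops, against 4.38, 4.76 and 5.33 in sham ileum. Of 10 acute phase genes 6 rose and none fell (median 1.40), with Hp, the haemoglobin-binding haptoglobin, at 4.02 ± 0.74. Of 14 tested genes of interleukin 1, TNF and myeloid chemokines 10 rose and none fell (median 1.79). Il1b, the main secreted interleukin 1, read 10.61, 9.39 and 8.71 in the IL10 knockout stagnant loops and 5.66, 5.45 and 5.32 in sham ileum (4.09 ± 0.76, adjusted p = 0.000429). Cxcl1, a chemokine that draws neutrophils, was at least 9.55-fold higher, and Il1r2, the decoy receptor for interleukin 1, at least 4.34-fold higher. Tnf rose by 2.41 ± 0.33 and Ccl4, a chemokine for monocytes and T cells, by 2.43 ± 0.42, with 1.26 from another Ccl4 probe.

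Of 23 tested genes of the lipopolysaccharide receptor complex and NF-kB pathway 11 rose and 3 fell (median 0.37). Cd14, the lipopolysaccharide co-receptor, read 9.46, 8.98 and 8.42 in the IL10 knockout stagnant loops, against 6.95, 7.10 and 6.79 in sham ileum (2.0 ± 0.24, adjusted p = 4.18e-06). Tlr2, a receptor for bacterial lipoproteins, rose by 1.99 ± 0.19, its partner Tlr1 by 1.20 ± 0.20 and Nfkbib, an NF-kB inhibitor, by 1.58 ± 0.28. Relb, a subunit of the non-canonical NF-kB pathway, fell by 1.80 on the log2 scale, with 6.87, 7.30 and 7.43 in the IL10 knockout stagnant loops and 8.93, 9.20 and 8.86 in sham ileum. Without replicate 1 of the stagnant knockout loops 1 gene of this list fell. In the oxidase and nitric oxide list 5 of 10 rose and 1 fell. Nox1, the epithelial NADPH oxidase, rose by 2.86 ± 0.36 and its activator Noxa1 by 1.20 ± 0.22. Arg2, the mitochondrial arginase, read 5.49, 5.19 and 4.88, against 9.77, 9.70 and 9.63 in sham ileum, and fell by 4.51 (adjusted p = 2.59e-08).

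Ifng, the gene of interferon gamma, read 7.19, 6.31 and 6.79 in the IL10 knockout stagnant loops, against 4.36, 4.34 and 4.29 in sham ileum, where it was not detected, and was at least 3.95-fold higher (adjusted p = 3.23e-08). Of 14 tested genes of interferon gamma signalling and T cell chemokines 10 rose, none fell and 4 were not called (median 1.27). Cxcl9, a T cell chemokine, read 11.25, 10.47 and 11.47 in the IL10 knockout stagnant loops and 7.23, 8.18 and 7.47 in sham ileum, so the groups lay more than 2 log2 units apart (3.44 ± 0.46, adjusted p = 1.46e-05). Cxcl10, which acts on the same receptor, rose by 3.10 ± 0.37, Cd274, the T cell inhibitory ligand PD-L1, by 3.28 ± 0.33, and Ubd, a ubiquitin-like modifier, by 2.97 ± 0.73. Socs1, an inhibitor of interferon signalling, rose by 1.48 ± 0.25.

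Of 11 tested immune GTPases 9 rose and none fell (median 1.39). Igtp, a GTPase that acts on vacuoles holding microbes, read 10.73, 10.35 and 11.51 in the IL10 knockout stagnant loops, against 6.92, 8.70 and 7.76 in sham ileum (3.07 ± 0.45, adjusted p = 3.88e-05). Gbp2, a guanylate-binding protein, read 11.69, 11.19 and 11.67, against 8.27, 9.56 and 8.84 in sham ileum (2.63 ± 0.47, adjusted p = 0.00027). The groups did not overlap in either gene. Ifi47 rose by 1.82 ± 0.35, Irgm2 by 1.62 ± 0.34 and Gbp7 by 1.56 ± 0.25, and Tgtp1 was at least 2.06-fold higher. Of 16 genes of antigen processing for MHC class I 8 rose and none fell (median 0.50). They include Nlrc5, the transcriptional activator of class I genes (2.33 ± 0.35), Tap1, the peptide transporter (1.83 ± 0.33), and the immunoproteasome subunits Psmb8 and Psmb9 (1.59 ± 0.33 and 1.31 ± 0.23). Among 13 genes of MHC class II presentation none was called. The smallest p there belonged to H2-DMb1, with 10.08, 10.09 and 10.57 in the IL10 knockout stagnant loops and 8.31, 9.73 and 9.61 in sham ileum (1.03 ± 0.42, adjusted p = 0.0698).

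Among antiviral genes of the type I interferon response, falls outnumbered rises. Of 18 tested 2 rose and 7 fell (median -0.18, against 14.3% of all genes falling). Cmpk2, a mitochondrial nucleotide kinase, read 7.39, 6.31 and 7.33 in the IL10 knockout stagnant loops, against 9.24, 9.37 and 8.69 in sham ileum, a difference of -2.09 (adjusted p = 4.63e-05). Ifi27 fell by 1.73, Irf7, a transcription factor of the type I response, fell by 1.64, and Ddx58, the viral RNA sensor RIG-I, fell by 1.40. Usp18, a negative regulator of the same response, rose by 1.96 ± 0.47, and Ifit2 by 1.66 ± 0.42, a call lost without replicate 1 of the stagnant knockout loops. Without replicate 2 of the stagnant knockout loops or replicate 2 of sham ileum 4 genes of the list fell, and without replicate 1 of those loops 1 rose. Against the wild type stagnant loop 4 of the 18 were higher and none lower, where 5.95% of all genes were higher. Sums of the list were 2557 to 4190 in IL10 knockout stagnant loops, 1820 to 2453 in wild type stagnant loops and 3583 to 7464 in sham ileum. The wild type stagnant loop, set against the same sham arrays, is drawn beside these values.

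**Figure D2:**
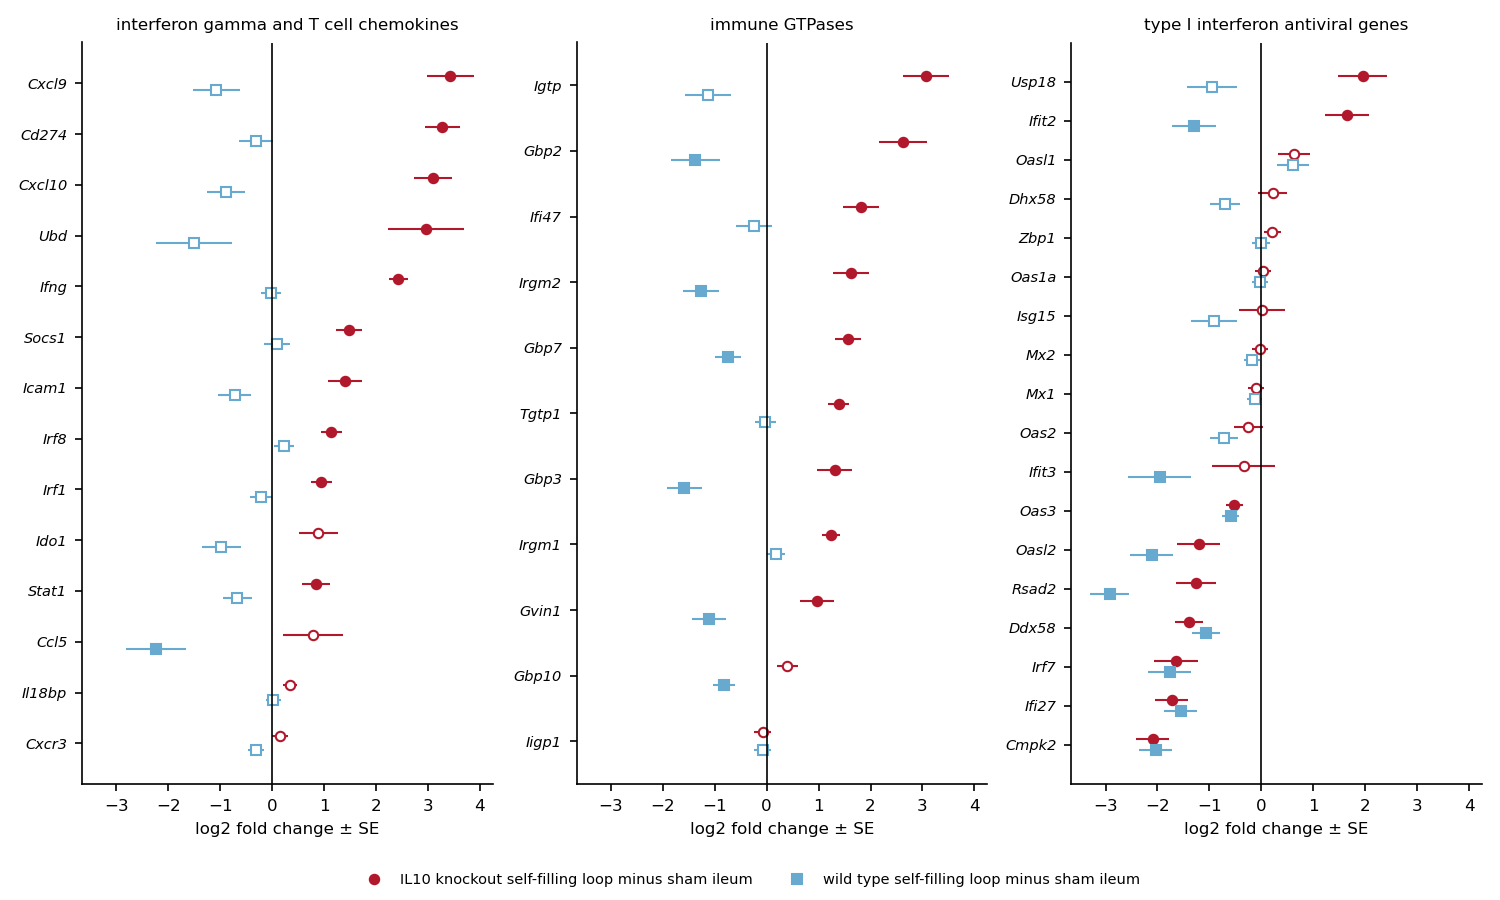
Log2 fold change with its standard error for every tested gene of 3 lists, in IL10 knockout stagnant loops (red circles) and wild type stagnant loops (blue squares), each minus the same 3 sham ileum arrays. Filled symbols mark adjusted p under 0.05, and open ones the rest. In the first 2 panels the knockout values lie right of 0 except for Iigp1, close to 0 (Cxcl9 at 3.44, Igtp at 3.07), and Cmpk2, Ifi27, Irf7 and Ddx58 lie left of 0 in both loops.

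In RefSeq windows of build GRCm38.p6, from 250 bases before to 50 after a start, 3 motifs were searched on both strands. The core of the interferon-stimulated response element (ISRE) was taken as GAAA, any 2 letters and GAAA again, the core of the interferon gamma activated site as TTCNNNGAA, and the NF-kB motif as GGG, any 2 letters and TTTCC. Of the 11 GTPases tested 8 had a window, and 7 of these held the ISRE core (87.5%), against 3.72% of the 8741 tested genes with a window. TTCNNNGAA was in 4 of the 8, against 8.44% of those tested genes. The type I interferon list, of which 7 genes fell, held the ISRE core in 6 of 11 windows (54.5%). Among its genes that fell, Ddx58, Oas3 and Rsad2 held it and Cmpk2, Irf7 and Oasl2 did not, so the motif was present in genes of both directions. In the interferon gamma and T cell chemokine list it was in 2 of 11 windows (18.2%), with none in Cxcl9, Cd274 or Ubd. The NF-kB motif was in 3 of 9 windows of the interleukin 1, TNF and myeloid chemokine list (33.3%), against 1.99% of tested genes. These matches describe letters and are not evidence of binding. The windows of Igtp, Irgm2, Gbp2, Cxcl10 and Cxcl1 are shown, since their genes carry the interferon and neutrophil chemokine results, and were chosen after their values were seen. Each is written 5′ to 3′ on the gene's own strand with motif letters in capitals. Those of Igtp (chr11:58199306-58199605, plus strand) and Irgm2 (chr11:58214727-58215026, plus strand) each hold 1 match of TTCNNNGAA and 1 of the ISRE core, those of Gbp2 (chr3:142620413-142620712, plus strand) and Cxcl10 (chr5:92348840-92349139, minus strand) hold 1 match of the ISRE core, and that of Cxcl1 (chr5:90890995-90891294, plus strand) holds the NF-kB motif at 2 places.
Igtp: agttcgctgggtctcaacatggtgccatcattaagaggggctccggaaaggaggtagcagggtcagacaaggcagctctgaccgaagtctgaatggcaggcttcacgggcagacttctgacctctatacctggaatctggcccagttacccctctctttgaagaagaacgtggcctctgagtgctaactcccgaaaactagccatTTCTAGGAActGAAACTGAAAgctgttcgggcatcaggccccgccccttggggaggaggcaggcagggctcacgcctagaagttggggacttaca
Irgm2: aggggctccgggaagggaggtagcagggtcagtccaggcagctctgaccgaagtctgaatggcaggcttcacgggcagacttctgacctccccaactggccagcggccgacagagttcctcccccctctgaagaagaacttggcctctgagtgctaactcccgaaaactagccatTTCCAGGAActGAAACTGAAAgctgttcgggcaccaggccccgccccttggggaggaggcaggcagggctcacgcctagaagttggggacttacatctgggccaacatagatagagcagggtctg
Gbp2: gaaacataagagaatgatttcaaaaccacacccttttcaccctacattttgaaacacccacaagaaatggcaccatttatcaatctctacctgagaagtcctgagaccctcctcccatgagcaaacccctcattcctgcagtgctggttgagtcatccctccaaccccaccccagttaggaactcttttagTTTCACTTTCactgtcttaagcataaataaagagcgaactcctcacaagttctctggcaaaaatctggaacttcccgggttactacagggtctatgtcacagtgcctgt
Cxcl10: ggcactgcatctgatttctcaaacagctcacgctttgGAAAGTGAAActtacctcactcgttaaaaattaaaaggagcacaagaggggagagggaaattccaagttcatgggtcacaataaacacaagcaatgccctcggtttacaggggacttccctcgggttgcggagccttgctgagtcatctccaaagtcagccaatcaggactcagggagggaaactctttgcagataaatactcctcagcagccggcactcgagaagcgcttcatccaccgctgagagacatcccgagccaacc
Cxcl1: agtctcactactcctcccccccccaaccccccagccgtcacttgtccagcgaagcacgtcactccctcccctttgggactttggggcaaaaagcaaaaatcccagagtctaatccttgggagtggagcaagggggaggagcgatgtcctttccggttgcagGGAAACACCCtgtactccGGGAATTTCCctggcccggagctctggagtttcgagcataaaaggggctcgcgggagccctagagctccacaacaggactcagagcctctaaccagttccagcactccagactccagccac

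Every one of the 14 tested brush border digestive enzymes fell (median -1.72, against 14.3% of all genes falling), and 12 to 14 fell when any 1 array was left out. Mme, the peptidase neprilysin, read 4.34, 4.37 and 4.54 in the IL10 knockout stagnant loops, where it was not detected, against 9.62, 9.53 and 9.30 in sham ileum, and was at least 25.5-fold lower (adjusted p = 2.64e-05), while another Mme probe fell by 2.71. Treh, which splits trehalose, read 5.75, 5.96 and 8.24, against 11.71, 11.60 and 10.998 in sham ileum (-4.79 ± 0.68, adjusted p = 3.1e-05). Replicate 3 of the stagnant knockout loops was the highest of its group for Treh and for Pdzk1. Xpnpep2, an aminopeptidase, fell by 3.25, the metalloprotease subunit gene Mep1a fell by 2.81 and Naaladl1 fell by 1.92. Enpp7, the intestinal sphingomyelinase, was at least 4.51-fold lower.

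Pdzk1, a scaffold that anchors transporters in the brush border, had the largest fall of all called genes whose arrays did not overlap. It read 6.05, 5.95 and 7.94 in the IL10 knockout stagnant loops and 12.90, 12.73 and 12.55 in sham ileum (-6.08 ± 0.94, adjusted p = 6.75e-05). Of 13 tested sugar, peptide and amino acid transporters 8 fell and 1 rose (median -1.04). Slc5a11, a sodium and inositol transporter, was at least 6.31-fold lower and Slc2a2, the glucose transporter GLUT2, at least 2.17-fold lower. Slc7a8, an amino acid transporter, fell by 2.63 and Slc15a1, the peptide transporter PEPT1, fell by 2.05. In the lipid absorption list 4 of 14 fell and none rose, among them Npc1l1, the cholesterol importer (-1.87 ± 0.27), Mogat2, a triglyceride synthesis enzyme (-1.30 ± 0.27), and Dgat1 (-1.08 ± 0.24). Of 10 genes of vitamin A uptake and retinoid metabolism 4 fell and none rose, with Rdh7, a retinol dehydrogenase, at -3.50 ± 0.63 and Aldh1a1, which makes retinoic acid, at -1.80 ± 0.42.

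Of 7 tested genes of ileal bile acid handling 1 fell, Abcc2, an apical exporter of conjugates (-1.41 ± 0.51, adjusted p = 0.0414), a call lost without any 1 of replicates 2 and 3 of the stagnant knockout loops and the 3 sham arrays. That count was near the share of all genes that fell (14.3%). Fabp6, the ileal bile acid-binding protein, read 13.96, 13.54 and 13.96 in the IL10 knockout stagnant loops, against 14.17, 14.01 and 14.11 in sham ileum (-0.27 ± 0.18, adjusted p = 0.286). Apoa1, an apolipoprotein of small intestine, read 14.41, 13.77 and 14.11, against 14.52, 14.43 and 14.56 (-0.41 ± 0.26, adjusted p = 0.253). Aqp8 and Insl5, markers of large intestine, lay between 4.29 and 4.93 in the IL10 knockout stagnant loops and between 4.34 and 5.18 in sham ileum, against a mean of 12.99 for Aqp8 in sham cecum. Fabp6 and Apoa1 were thus high in both groups. Other members of the list of large intestinal epithelium, which holds Aqp8 and Insl5, did change. Aqp4 (3.12), B3gnt7 (2.58) and Hsd11b2 (1.35) rose, while Sycn (-1.22) and Cyp2c55 (-1.92) fell. Slc10a2, Car1 and Epcam were not among the genes tested.

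Of 18 tested genes of xenobiotic metabolism 11 fell and none rose (median -1.14), and 7 fell without replicate 1 of the stagnant knockout loops. Cyp2d26, a cytochrome P450, read 4.30, 4.82 and 4.49 in the IL10 knockout stagnant loops, against 10.50, 9.88 and 9.41 in sham ileum (-5.40 ± 0.50, adjusted p = 2.29e-07). Ces1d, a carboxylesterase, fell by 2.81 and Cyp2d22 fell by 2.43. Other large falls were those of Ugt2b36, a glucuronosyltransferase (-4.50 ± 0.39), Slc47a1, a drug exporter (-4.16 ± 0.61, and -2.53 from another probe), Dio1, the thyroid hormone deiodinase (-4.82 ± 0.62), Serpina1b and Serpina1d, alpha-1 antitrypsin genes (-4.53 ± 0.41 and -4.43 ± 0.38), and Defb37, a beta-defensin (-4.38 ± 0.36). Serpina1b and Serpina1d are near-identical, so their probes may read each other. For Cfl2, an actin-severing cofilin, 1 probe fell by 4.37 and another gave -0.26, so its change is uncertain.

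Of 15 genes of fatty acid oxidation and ketogenesis 7 fell and 1 rose (median -0.57). Cpt2, which brings fatty acids into oxidation, fell by 1.01. Of 18 genes of glycolysis and the hypoxia response 9 rose and none fell (median 0.53). Hif1a, the oxygen-regulated transcription factor subunit, read 9.83, 9.20 and 9.06 in the IL10 knockout stagnant loops and 7.06, 6.76 and 6.96 in sham ileum (2.44 ± 0.36, adjusted p = 3.98e-05). Slc2a1, the glucose transporter GLUT1, rose by 1.61 ± 0.39, Pdk1 by 1.06 ± 0.21 and Pkm, a pyruvate kinase, by 1.02 ± 0.21. Among 23 genes of the respiratory chain 1 rose and 1 fell (median 0.02). Of 17 cytosolic ribosomal protein genes 10 rose and 1 fell, but 2 rose without replicate 1 of the stagnant knockout loops and 5 or 6 without replicate 2 of those loops or any 1 sham array.

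The hormone genes of enteroendocrine cells fell, with 8 of 13 lower and 1 higher (median -0.81). Nts, which encodes neurotensin, read 6.12, 7.33 and 7.58 in the IL10 knockout stagnant loops, against 9.99, 9.81 and 9.15 in sham ileum (-2.64 ± 0.43, adjusted p = 0.000105). Sst (somatostatin) fell by 2.58, and Sct (secretin) fell by 2.08. Gcg, the gene of glucagon-like peptides, fell by 1.86 and Pyy (peptide YY) fell by 1.64. Tac1, which encodes substance P, read 9.37, 11.58 and 11.66, against 8.11, 7.64 and 7.52 in sham ileum, and rose by 3.11 ± 0.40 (adjusted p = 1.17e-05). Substance P is made by enteric neurons as well, and of 10 tested enteric neuron and glia markers none was called, with summed levels of 467 to 1090 in the IL10 knockout stagnant loops and 430 to 600 in sham ileum. The part of neurons in the Tac1 rise was not tested. Of 10 tuft cell genes 5 fell and none rose (median -0.91). Gnat3, a taste G protein, was at least 2.19-fold lower. The tuft count was less firm, with 2 falls without replicate 1 and 3 without replicate 2 of the stagnant knockout loops and 1 without replicate 3 of sham ileum. The hormone count was 5 without replicate 1 of the stagnant knockout loops or without replicate 1 or 2 of sham ileum.

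Of 11 tested Paneth cell products 4 fell and 1 rose (median -0.25). Ang4, an antimicrobial ribonuclease, read 10.80, 9.67 and 11.28 in the IL10 knockout stagnant loops, against 13.54, 13.67 and 14.26 in sham ileum (-3.24 ± 0.64, adjusted p = 0.000775). Defa21, an alpha-defensin, fell by 3.42, Pnliprp2, a lipase, fell by 3.69 and Itln1, an intestinal lectin, fell by 1.45. Pla2g2a, a secreted phospholipase that kills bacteria, rose by 1.25 ± 0.24. Alpha-defensin genes are near-identical, so the value of Defa21 may hold signal of others. Of 13 epithelial antimicrobial and lectin genes 4 rose and 2 fell. Besides Lcn2, Wfdc18 was at least 3.30-fold higher and Dmbt1, a mucin-like scavenger, rose by 1.69 ± 0.22, while the lectin gene Reg3a fell by 2.26.

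Goblet cell genes were mixed as well, with 3 of 13 higher and 1 lower. Over all genes 15.3% rose and 14.3% fell, so the goblet rises were not far above the share of all genes and the falls under it. Clca1, an abundant mucus protein, read 10.82, 12.31 and 12.23 in the IL10 knockout stagnant loops, against 13.74, 13.61 and 13.92 in sham ileum (-1.97 ± 0.34, adjusted p = 0.000183), in contrast to Retnlb. Without replicate 2 of either group 1 goblet gene rose. Of 18 enzymes of mucin glycans and sulfation 6 rose and 4 fell. Fut2, which adds fucose, read 9.0, 10.66 and 9.74 in the IL10 knockout stagnant loops and 5.97, 5.56 and 6.99 in sham ileum (3.63 ± 0.63, adjusted p = 0.000234). B3gnt7 rose by 2.58 ± 0.37 and the sulfotransferase gene Chst4 by 2.50 ± 0.33, and Gal3st2, another sulfotransferase, fell by 2.50. In the list of large intestinal epithelium 3 of 20 rose and 2 fell, a share near that of all genes, with Aqp4, a water channel, at 3.12 ± 0.34.

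Genes of regional identity, stem cells and growth follow. Of 16 regional transcription factors 4 fell and none rose, with Hnf4g, a nuclear receptor of the small intestinal programme, at 5.62, 5.64 and 6.44 in the IL10 knockout stagnant loops and 7.42, 7.26 and 7.48 in sham ileum (-1.49 ± 0.40, adjusted p = 0.00846). Gata5 fell by 0.81 on the log2 scale. In the stem cell and Wnt list 3 of 13 fell and 1 rose. Axin2, a Wnt target, fell by 1.34, the crypt gene Olfm4 fell by 0.74, and the crypt receptor gene Ephb2 rose by 1.26 ± 0.20. Of 17 genes of repair and the fetal-like state 5 rose and none fell, with Ly6a, the surface protein Sca-1, at 13.68, 13.43 and 13.05 in the IL10 knockout stagnant loops and 10.50, 11.32 and 10.35 in sham ileum (2.66 ± 0.37, adjusted p = 2.21e-05). Of 19 cell cycle genes 6 rose and none fell, among them Plk1, a mitotic kinase (1.08 ± 0.26). That count was 1 without replicate 1 and 12 without replicate 2 of the stagnant knockout loops, and 2 without replicate 1 or 2 of sham ileum. Of 15 tight junction genes 3 fell and none rose, with F11r, a junctional adhesion molecule, at -0.83 ± 0.15, and 1 fell without replicate 1 of the stagnant knockout loops. Over all genes 14.3% fell, so the falls in the stem cell and tight junction lists were not far above that share.

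**Figure D3:**
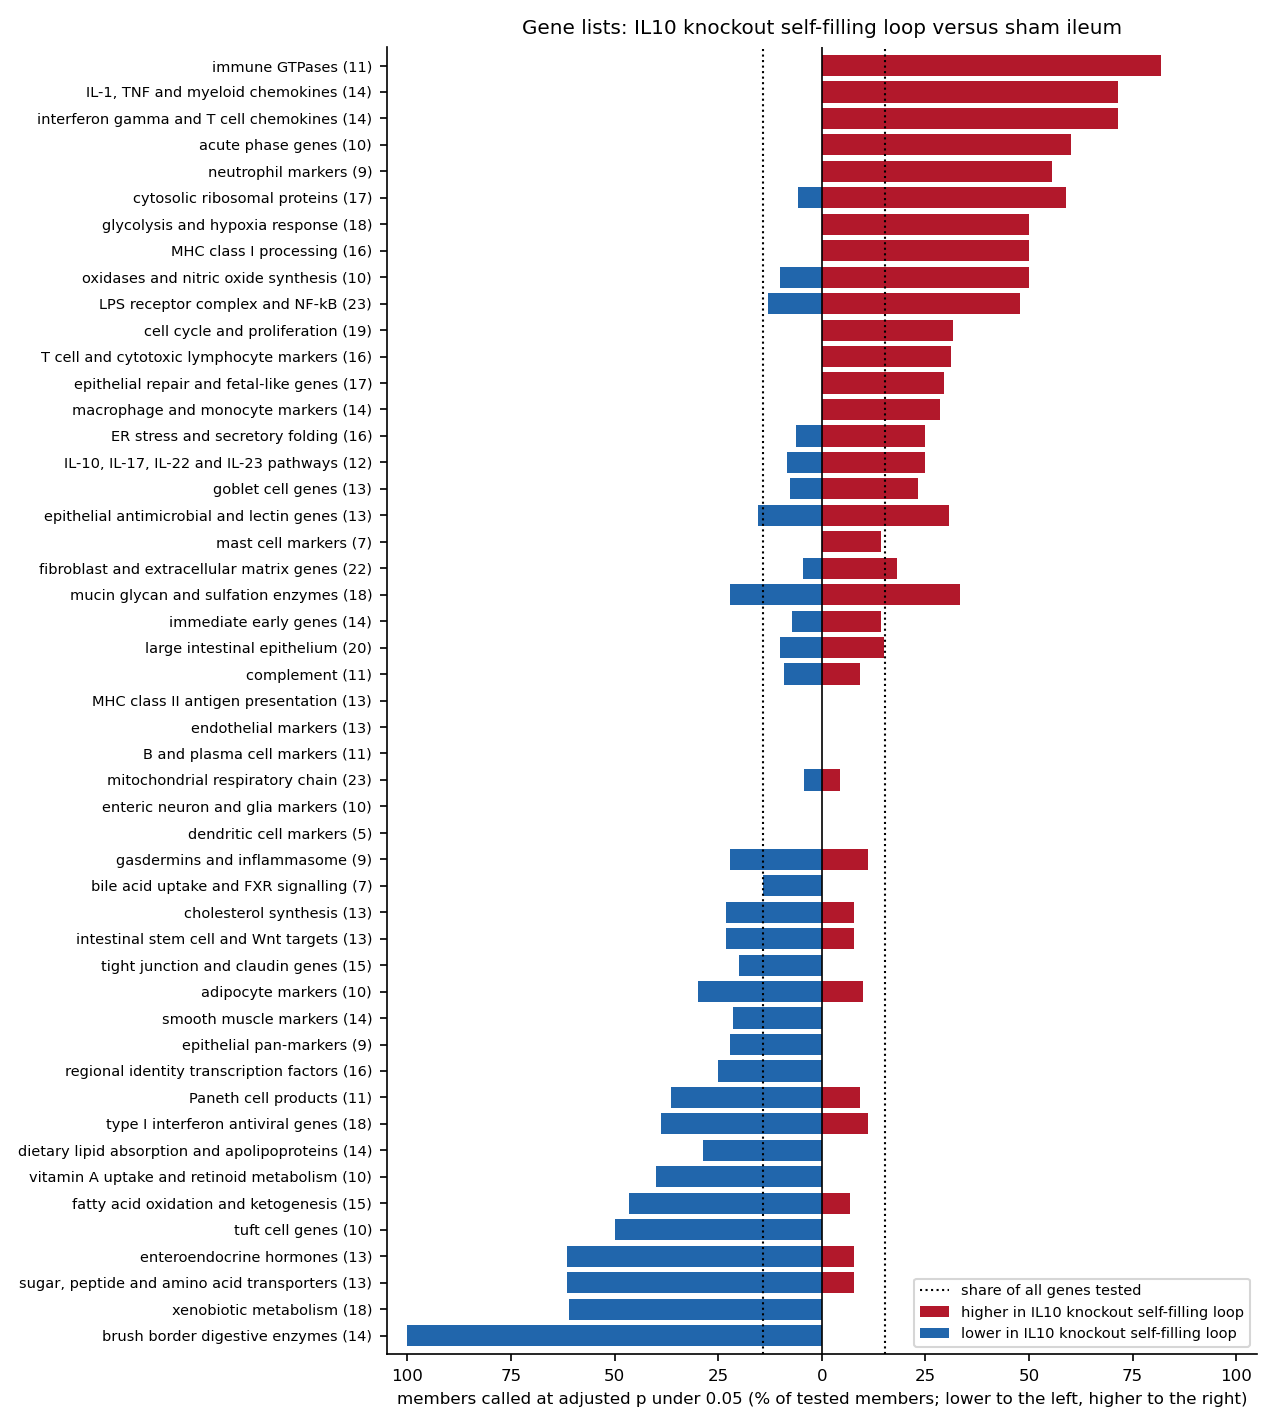
Percent of the tested members of each gene list (number in brackets) called lower (blue, to the left) or higher (red, to the right) in IL10 knockout stagnant loops than in sham ileum, for lists with at least 5 tested members. Dotted lines mark the share of all genes called in each direction (14.3% lower, 15.3% higher). Brush border enzymes reach 100% lower and immune GTPases show 9 of 11 higher.

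The arrays read whole tissue, in which fewer cells of a type and less RNA per cell cannot be told apart, so markers of each cell type are given beside the lists. Neutrophil markers summed to between 5059 and 17400 (linear units) in the IL10 knockout stagnant loops and between 270 and 311 in sham ileum. In the stagnant knockout loops most of that sum was S100a8 and S100a9. Epithelial markers summed to between 56190 and 60240, against 63980 to 66610 in sham ileum, with 2 of 9 lower. Vil1, the brush border protein villin, read 11.86, 11.67 and 11.83 in the IL10 knockout stagnant loops and 13.09, 13.14 and 13.11 in sham ileum (-1.32 ± 0.17, adjusted p = 9.17e-06), and the adhesion gene Cdh1 stood at -0.39 ± 0.15 (adjusted p = 0.0492), a call lost in 13 alternatives. Over the 9 epithelial markers the median difference was -0.06, against -1.72 over the brush border enzymes, and the part of epithelial content in those falls was not tested.

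The groups overlapped in summed macrophage markers and lay close together in T cell markers. Macrophage markers summed to between 5184 and 6418 in the IL10 knockout stagnant loops and between 2426 and 5689 in sham ileum. Of 14, 4 rose, and none rose without replicate 1 of the stagnant knockout loops or replicate 3 of sham ileum, 1 without replicate 1 of sham ileum and 2 without replicate 2 of the loops. T cell markers summed to between 1737 and 2482 in the IL10 knockout stagnant loops and between 946 and 1557 in sham ileum, and 5 of 16 rose, led by Ctla4, an inhibitory receptor (2.02 ± 0.26), with 2 rises without replicate 3 of the loops or replicate 1 of sham ileum. None of 11 B and plasma cell markers and none of 13 endothelial markers was called, though 1 B cell marker rose without replicate 2 of sham ileum and 1 endothelial marker fell without replicate 3 of the loops. Of 22 fibroblast and matrix genes 4 rose and 1 fell (median -0.20), against 15.3% of all genes rising and 14.3% falling. The rises were thus near the share of all genes and the falls under it. Among the rises were the matrix protease gene Mmp14 (1.66 ± 0.26), the collagen cross-linker gene Lox (1.61 ± 0.42) and Timp1, a protease inhibitor that was at least 3.17-fold higher. The part of these cells in the immune rises was not tested.

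Smooth muscle and fat stood out by array. Smooth muscle markers summed to 13720 on replicate 1 of the IL10 knockout stagnant loops, 52580 on replicate 2 and 36460 on replicate 3, and to between 30720 and 41810 in sham ileum. The 3 falls in that list (Flna, Mylk and Lmod1 of 14) came down to 0 without replicate 1 of the loops or replicate 1 or 3 of sham ileum, and to 1 without replicate 2 of sham ileum. Adipocyte markers summed to between 998 and 2045 in the IL10 knockout stagnant loops and to 5033, 29790 and 7099 in sham ileum, where replicate 2 was the highest. Of 10 adipocyte markers 3 fell and 1 rose. The rise was that of Pparg, a nuclear receptor of fat cells (1.11 ± 0.38, adjusted p = 0.0322), which was not called without replicate 1 of the stagnant knockout loops or replicate 1 or 3 of sham ileum. The number that fell was 5 without replicate 2 of the loops or replicate 1 of sham ileum, 1 without replicate 3 of the loops and 0 without replicate 2 of sham ileum. Car3, a carbonic anhydrase of fat and muscle, read 4.26, 4.73 and 4.31 in the IL10 knockout stagnant loops and 7.75, 11.30 and 9.18 in sham ileum, and was at least 24.2-fold lower (adjusted p = 0.0101). Adipoq, the fat cell hormone adiponectin (-4.17 ± 1.34), Scd1, a fatty acid desaturase (-4.30 ± 1.36), and Car3 were no longer called without replicate 2 of sham ileum. Scd1 was also not called without replicate 3 of the stagnant knockout loops, and Adipoq not without replicate 1 or replicate 3. The part of fat content in these falls was not tested.

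**Figure D4:**
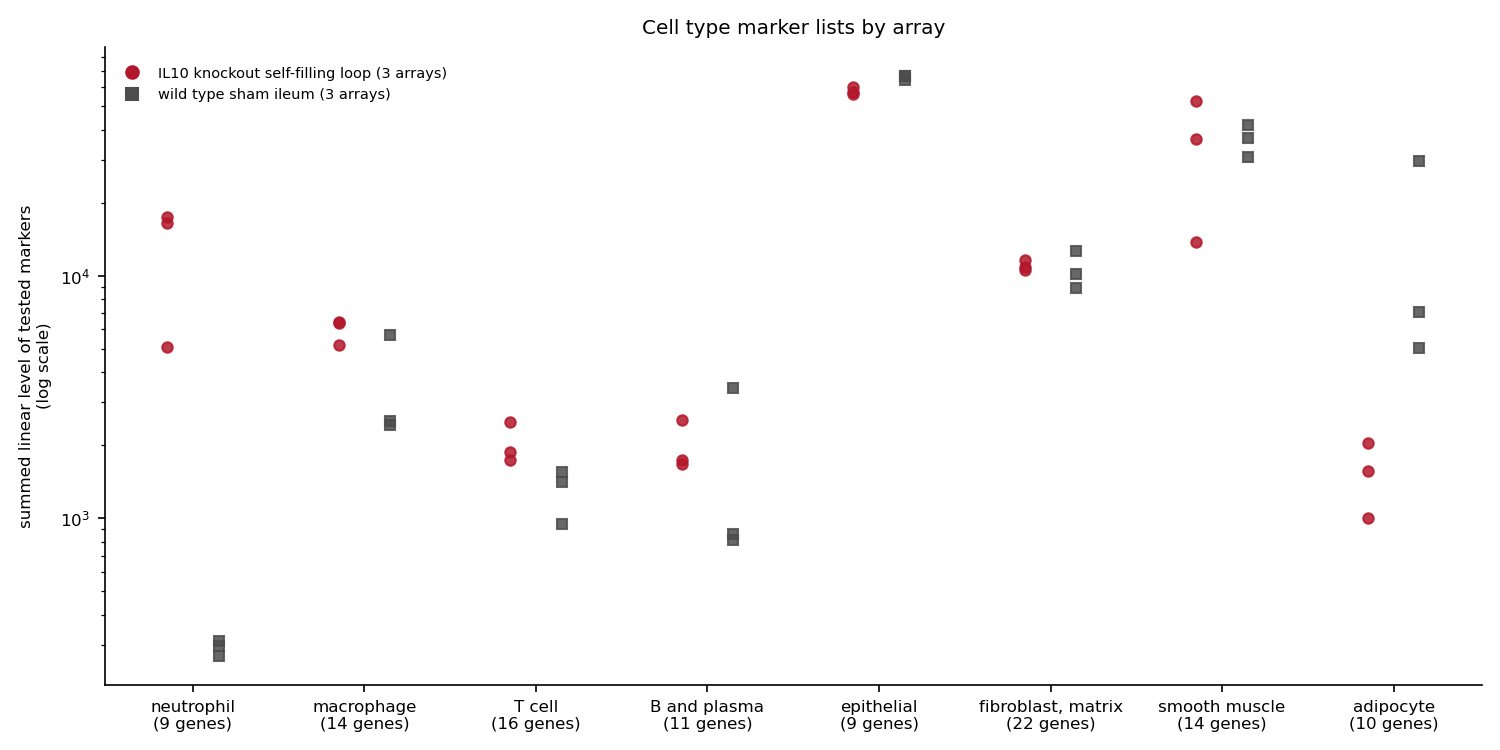
Sum of the linear levels of the tested markers of 8 cell types on each array (log scale), for IL10 knockout stagnant loops (circles) and wild type sham ileum (squares). Neutrophil sums (5059 to 17400, against 270 to 311) and adipocyte, T cell and epithelial sums do not overlap between the groups. Smooth muscle spreads from 13720 to 52580 in the knockout loops.

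The IL10 knockout stagnant loop was then set against 2 neighbours, to show where it differs. Between the stagnant loops of the 2 genotypes 1413 genes were called (12.6%), 668 higher in the knockout (5.95%) and 745 lower (6.64%). Between the stagnant and the draining IL10 knockout loop 462 were called (4.12%), 215 higher (1.92%) and 247 lower (2.2%). That count was 5 with these 2 groups fitted alone and 104 without replicate 1 of the stagnant loops. Single genes were run under the alternatives only for the IL10 knockout stagnant loop against sham ileum. The calls of single genes against the neighbours below were therefore not checked in this way. The draining IL10 knockout loop differed from sham ileum in 2003 genes (17.8%), 1168 higher (10.4%) and 835 lower (7.44%). The comparisons share arrays, so their values are given side by side only.

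S100a8 averaged 12.88 in IL10 knockout stagnant loops, 9.05 in IL10 knockout draining loops, 6.76 in wild type stagnant loops and 4.52 in sham ileum, and was 6.12 ± 0.87 above the wild type stagnant loop (adjusted p = 7.88e-05) and 3.83 above the draining loop (adjusted p = 0.0167). Lcn2 averaged 12.27, 7.40, 6.40 and 5.39 in the same order of groups, 4.87 above the draining loop (adjusted p = 2.32e-05). Lrg1 was 3.35 above the wild type stagnant loop and 1.89 above the draining loop, and also 4.81 higher in the draining loop than in sham ileum. Against the draining loop, the 5 largest rises were those of Lcn2, Chil3, Cxcl13 (a B cell chemokine), S100a8 and Hp. Chil3 was 4.47 higher there (adjusted p = 9.42e-05). In the draining knockout loop Chil3 was at least 1.49-fold higher than in sham ileum, where it was not detected, and that difference was not called (adjusted p = 0.199). Retnlb was not called between the IL10 knockout loops (0.12 ± 1.10, adjusted p = 0.965).

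Of the 11 GTPases 10 were higher than in the wild type stagnant loop none was called against the draining knockout loop, and 7 were higher in the draining knockout loop than in sham ileum. Igtp averaged 10.86 in IL10 knockout stagnant loops, 10.17 in IL10 knockout draining loops, 6.67 in wild type stagnant loops and 7.80 in sham ileum, so that the knockout loops lay together and above the rest. Tap1 was 2.67 higher than in the wild type stagnant loop and -0.06 against the draining knockout loop (adjusted p = 0.942). Of 16 class I genes 13 and of 13 class II genes 7 were higher than in the wild type stagnant loop, and none in either list was called against the draining knockout loop. In both lists the wild type stagnant loops lay below sham ileum. Class I sums were 31020 to 38400 in IL10 knockout stagnant loops, 16990 to 20980 in wild type stagnant loops and 28450 to 34370 in sham ileum. Class II sums were 28230 to 38550, 8115 to 16330 and 18210 to 35260 in the same order. Ifng and Cxcl10 did differ between the knockout loops, with 1.88 (adjusted p = 8.7e-06) and 2.49 (adjusted p = 0.00061) more in the stagnant one. Of 16 T cell markers 12 and of 14 macrophage markers 9 were higher than in the wild type stagnant loop. There too the wild type stagnant loops lay below sham ileum. T cell sums were 647 to 755 in wild type stagnant loops, against 946 to 1557 in sham ileum. Macrophage sums were 867 to 1661, against 2426 to 5689.

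Of the 14 brush border enzymes 4 were lower than in the wild type stagnant loop, none was called against the draining knockout loop and 10 were lower in the draining knockout loop than in sham ileum. The median difference of these enzymes was nonetheless alike, at -0.80 against the wild type stagnant loop and -0.78 against the draining knockout loop. Their sums were 14590 to 29060 in IL10 knockout stagnant loops and 25560 to 44990 in IL10 knockout draining loops. Beside them, 4 of 9 epithelial markers were lower than in the wild type stagnant loop (median -0.37), with sums of 56190 to 60240 in the IL10 knockout stagnant loops and 66260 to 78240 in the wild type stagnant loops, and their part in the enzyme falls was not tested. Cyp2d26 averaged 4.54 in IL10 knockout stagnant loops, 4.88 in IL10 knockout draining loops, 6.93 in wild type stagnant loops and 9.93 in sham ileum. Arg2 averaged 5.19, 7.95, 8.96 and 9.70 in the same order, and stood at -2.76 against the draining knockout loop (adjusted p = 8.8e-05), and its mean was lowest in the stagnant knockout loop. Of 11 Paneth genes 4 were lower than in the wild type stagnant loop and 4 were lower than in the draining knockout loop, among them Ang4 at -3.28 against the draining knockout loop (adjusted p = 0.0062). Gsdmc2, a gasdermin of intestinal epithelium, averaged 5.49, 9.75, 10.18 and 8.41, so the means of the other loops lay above that of sham ileum and that of the stagnant knockout loop below it. It stood at -4.69 against the wild type stagnant loop (adjusted p = 0.0033), and its fall against sham ileum (-2.92 ± 0.99, adjusted p = 0.0311) was not called without replicate 2 of the stagnant knockout loops or replicate 2 or 3 of sham ileum. Gsdmc2 and its neighbour family members are near-identical, so their probes may read each other.

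**Figure D5:**
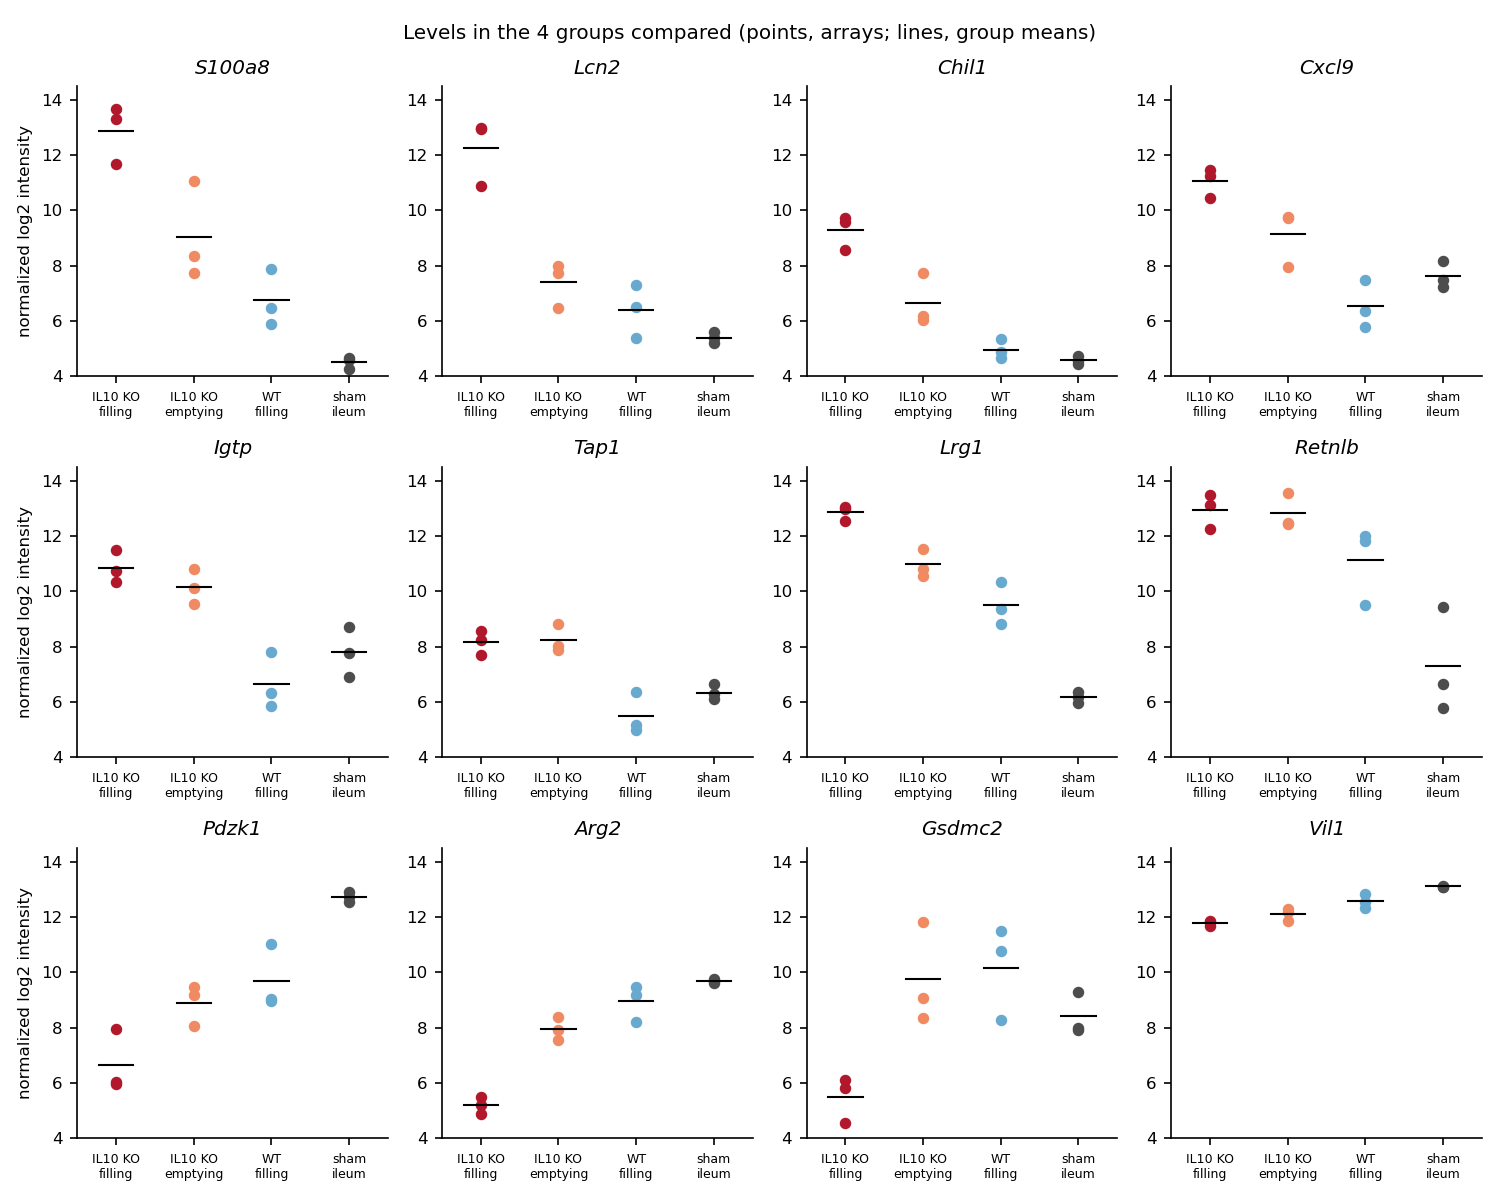
Normalized log2 intensity of 12 genes in IL10 knockout stagnant (filling) loops, IL10 knockout draining (emptying) loops, wild type stagnant loops and wild type sham ileum (points, 3 arrays each; lines, group means). S100a8, Lcn2 and Chil1 are highest in the stagnant knockout loop, Igtp (10.86 and 10.17) and Tap1 lie close in the 2 knockout loops, and Arg2 and Gsdmc2 are lowest in the stagnant knockout loop.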

How the data were processed

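RNA from ileal loops and sham tissue was read on Illumina bead arrays. The deposited raw table holds the scanner's average signal per probe as linear intensity, not normalized, and beside it a p-value for detection, per the file headers. A second deposited table holds the authors' processed log2 values for 17612 probes. Those were made with limma, per the submitters' processing notes, with no version given. Each of its 25 columns matched its own array best (lowest r 0.999993 against the values computed here), and its scale and direction agree within 0.0951 log2 units.

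Raw intensities of 25697 probes were background-corrected, quantile-normalized and put on the log2 scale with neqc (offset 16) of limma 3.58.1 in R 4.3.3. Probes detected at p under 0.05 on at least 3 of 25 arrays were kept (15318), and 1 probe a gene, that with the highest mean, gave 11227 genes, of which 2896 had several probes. Arrays detected 47.2 to 53.0% of probes. The number of arrays limits the precision. Symbols were updated to RefSeq through gene identifiers for 23788 probes, and 564 kept the file's name. Groups came from the sample titles. A group-means model over all 25 arrays was fitted with lmFit and eBayes (17 residual and 3.92 prior degrees of freedom), with Benjamini-Hochberg adjustment. Where no array of a group detected a probe, its level there is a bound, written "at least": the other group's mean against, per array, the higher of the probe's own value and the lowest detected signal, as means of log2 values. The fit was tested on simulated data.

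Named genes are the 15 largest rises and 15 largest falls among called genes whose arrays did not overlap, up to 6 called members of each of 50 lists (865 symbols, 659 tested; where none is called, the 2 with the smallest p), the 5 largest each way in the other 3 comparisons, and Il10 and Tlr4. Fabp6, Apoa1, Aqp8 and Insl5 are markers of region. The members and lists were chosen with earlier results of these data known. Alternatives were the replicate number as a block, the compared groups alone, the array code run or a signal ratio as covariates, array weights, other background, scaling, filter and probe rules, the deposited log2 values, and leaving out each array. Promoter windows are those of RefSeq. Groups other than the 4 named in the text entered the shared fit, and of these the sham cecum also gave the level of 1 marker of region. No slide or scan is given in the sources used here, and no 2 arrays held identical values. Of the 231 named genes a part is described in the text, and 1 result is not reported here.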

Additional observations from a re-analysis of the deposited data

Results flagged for a closer look

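Listed here are genes in which the stagnant loop was called in opposite directions from sham ileum by genotype label. Only the 231 named genes were searched. A call between the IL10 knockout and the wild type stagnant loop was part of the rule. That limma test (adjusted p from 2.49e-06 to 0.000356, n = 3 arrays each) is therefore no added support. Both differences from sham ileum use the same 3 sham arrays. The call of the IL10 knockout stagnant loop against sham ileum was lost under 5 alternatives for Cd3d, Fcer1g and Zap70, under 4 for Nkg7 and Cd55 and under 3 for Tyrobp and Ifit2, mostly when 1 array was left out, with adjusted p up to 0.177. It was lost under none for Gbp2, Irgm2 and Gbp7. The call of the wild type stagnant loop against sham ileum was not run under the alternatives. How firm the opposite directions are was therefore checked on the IL10 knockout side only.

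Among interferon-induced genes, the difference between genotypes was 4.00 for Gbp2 (2.63 in the IL10 knockout stagnant loop and -1.37 in the wild type stagnant loop, each against sham ileum). It was 2.96 for Ifit2 (1.66 and -1.31), 2.89 for Irgm2 (1.62 and -1.27) and 2.30 for Gbp7 (1.56 and -0.74).

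Among T cell and myeloid genes, it was 2.62 for Cd3d, a T cell receptor subunit (1.28 and -1.35). It was 2.58 for Nkg7 of cytotoxic cells (0.98 and -1.60) and 1.65 for Zap70, a T cell kinase (0.77 and -0.89). The adaptor genes Fcer1g and Tyrobp differed by 2.68 (1.19 and -1.49) and 1.81 (0.94 and -0.87).

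Cd55, which protects cells from complement, went the other way, with a difference of -2.11 (-1.06 in the IL10 knockout stagnant loop and 1.05 in the wild type stagnant loop).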

How the results depend on the processing

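No named gene called in the IL10 knockout stagnant loop against sham ileum reversed its direction under any alternative run. Reversal was not scored for named genes that were not called. The alternative that tested every probe was not applied to single genes. Of 218 named genes called in the IL10 knockout stagnant loop against sham ileum, 148 stayed called under every alternative run and 70 lost the call under 1 or more, 46 of them without replicate 1 of the stagnant knockout loops. Leaving out 1 array gave 2207 to 3224 calls in that comparison (2207 without replicate 1 of the loops), 1144 to 1653 higher, 1063 to 1571 lower and 817 to 1190 at 1 log2 unit or more. Without background correction 454 genes reached 1 log2 unit, against 1048. Against the wild type stagnant loop 778 to 1394 genes were called when 1 array was left out, with 860 without replicate 1 of the stagnant knockout loops and 778 and 892 without replicates 1 and 3 of the wild type loops. Against the draining knockout loop it was 104 to 759, with 104 without replicate 1 and 759 without replicate 3 of the stagnant loops and 247 and 224 without replicates 1 and 2 of the draining loops. For the draining knockout loop against sham ileum it was 1131 to 1948, with 1187 without its replicate 1 and 1131 without replicate 2 of sham ileum. With the 2 compared groups fitted alone, 741 genes were called against the wild type stagnant loop and 5 against the draining loop, where 1491 had an unadjusted p under 0.05. Array weights gave 3598 calls for the draining knockout loop against sham ileum. The causes were not tested.

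Same-numbered arrays deviated together with r of 0.107, 0.109 and 0.05, so the numbers were not taken as pairs, though every sample correlated best with its own number. With the replicate block over all arrays the 4 counts were 3198 (stagnant knockout loop against sham ileum), 1289 (against the wild type stagnant loop), 342 (against the draining loop) and 1884 (draining loop against sham ileum). With the block in the 2 groups alone, the last 3 were 450, 0 (limma, with 1070 at an unadjusted p under 0.05) and 436. The replicate numbers used are those of the sample titles. The sample descriptions give other numbers for all IL10 knockout draining loops and for replicate 3 of the wild type stagnant loops. A block on those numbers was not run, so block counts that involve these groups may rest on mismatched blocks. Probes not detected in a group give only bounds.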
